A study of Mus musculus with 4 samples.

Results

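The genes described here encode subunits of the proteasome, molecular chaperones of the heat shock, J-domain, TRiC and BAG families, peptidyl-prolyl isomerases (cyclophilins and FK506-binding proteins) and 14-3-3 proteins. They were taken by a rule on gene names, as symbols that begin with Psma to Psmg, Hsp, Dnaj, Cct, Bag, Fkbp or Ywha, or that are Tcp1, Stip1 or Ppia to Ppih. In the table of polyA sites 85 of 7202 gene names met this rule, and they held 103 of 9297 sites. The 4 libraries (replicates 1 to 4) came from cTag-PAPERCLIP on microdissected CA1 neuropil, the dendrite-rich layer beside the pyramidal cell bodies of the hippocampus. All 4 belonged to 1 group of C57BL/6 mice with the genotype Camk2a-Cre x Pabpc1-cTag, and the labels gave no treatment and no age. In these mice Cre under the Camk2a promoter, which is active in excitatory forebrain neurons, adds a GFP tag to Pabpc1, the protein that binds poly(A) tails. Slices were crosslinked with ultraviolet light, and RNA bound to the GFP-tagged protein was purified and read at its 3′ end. Per the study's methods, each replicate pooled several mice.

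The proteasome degrades proteins marked with ubiquitin. Its 20S core is a barrel of alpha and beta subunits, and the 19S regulatory particle, with a ring of ATPases (Psmc) and non-ATPase subunits (Psmd), recognises and unfolds the substrate. HSP70 and HSP90 proteins use ATP to fold clients, J-domain proteins (Dnaj) deliver clients to HSP70 and stimulate its ATPase, BAG proteins release nucleotide or client from HSP70, and the TRiC ring folds actin and tubulin. Cyclophilins and FK506-binding proteins isomerise proline bonds. The 14-3-3 proteins bind phosphorylated partners and are abundant in brain. They are adapters rather than classical chaperones and form a class of their own below. The chaperone class holds the heat shock, J-domain, TRiC and BAG names and Stip1. It includes Hspb11, an intraflagellar transport subunit that the symbol rule took in by its name.

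The libraries were shallow, with 16017, 6609, 5947 and 6099 tags in replicates 1 to 4, so shares are given as tags per 10000 library tags (1 tag is 0.624 in replicate 1 and 1.51 to 1.68 in the others). A tag marks a 3′ end, so shares were not divided by transcript length. Sites that resemble Bc1, a short noncoding RNA, took 32.9%, 11.8%, 2.59% and 2.07% of the tags in replicates 1 to 4, which lowers every other share in replicate 1 the most. Marker genes of other cells were present. The summed share ran from 9.84 to 31.8 per 10000 for 7 of 7 astrocyte markers, from 13.1 to 54.5 for 6 of 6 oligodendrocyte markers and from 3.12 to 128 for 4 of 8 blood and vessel markers. It ran from 3.03 to 24.6 for 4 of 7 interneuron markers (Gad2, Slc32a1 and Vip at 0) and from 0 to 1.87 for 2 of 6 microglial markers. Of 10 pyramidal neuron markers 8 were found, at 72.6 to 120 per 10000. Camk2a and Slc17a7 were at 0 by name, while sites named Mir6982, which lie in Camk2a in GENCODE vM21, held 215 tags.

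The proteasome, chaperone, isomerase and 14-3-3 genes together held 361 of 34672 tags, or 1.04% of tags at 1.11% of sites. The counts were 129, 58, 84 and 90 tags in replicates 1 to 4. As shares these were 80.5 (95% Wilson interval 67.8 to 95.6), 87.8 (68.0 to 113), 141 (114 to 175) and 148 (120.2 to 181) per 10000, and 114 ± 35.0 on average (SD, n = 4). On these library totals, replicates 3 and 4 lay above replicates 1 and 2. With Bc1-like sites left out of the totals, the shares were 120.0, 99.5, 145 and 151, and replicates 3 and 4 were still the highest. With effective totals from TMM normalisation (9900, 7246, 7068 and 7573 in replicates 1 to 4), replicate 1 was the highest. The order of the replicates thus depended on the scaling. The Wilson intervals given here and below cover counting error only. They are too narrow if some tags are PCR copies, and duplicate collapse is not given in the sources used here.

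Ywhaz and Ywhag gave 78 tags (21.6% of the 361) and the 10 genes with the most tags gave 178 (49.3%), while 32 of the 85 genes (37.6%) had a single tag, against 43.7% of all gene names. Of 169 vM21 protein-coding genes whose symbol met the rule, 85 were listed (50.3%), against 29.4% of all 21924 protein-coding genes. The listing counts a gene with a tag in any replicate, and 84 genes of the rule had no site of their name.

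By class, chaperones held the most tags. The 42 chaperone genes had 148 tags at 51 sites (46.6 ± 15.2 per 10000, SD, n = 4) and the 6 genes of the 14-3-3 family had 118 tags at 12 sites (38.1 ± 17.5). The 27 proteasome genes had 65 tags at 29 sites (19.9 ± 3.52), and the 10 isomerase genes had 30 tags at 11 sites (9.63 ± 2.84).

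The proteasome share was 15.6, 24.2, 20.2 and 19.7 per 10000 in replicates 1 to 4, and the isomerase share was 6.24, 9.08, 10.1 and 13.1. The chaperone share was 33.7, 33.3, 60.5 and 59.0, and the 14-3-3 share was 25.0, 21.2, 50.4 and 55.7. On library totals, the chaperone, isomerase and 14-3-3 shares were higher in replicates 3 and 4 than in replicates 1 and 2. With TMM totals, the chaperone share was highest in replicate 1, and the isomerase share of replicate 1 lay above that of replicate 3. The 14-3-3 share of replicate 1 then stayed below those of replicates 3 and 4. Ppie gave 8 isomerase tags, all in replicates 3 and 4 at 1 site far outside its gene. The FK506-binding family alone had 5.62, 7.57, 1.68 and 8.20 per 10000. The 4 intervals of a class overlapped for the proteasome, the chaperones and the isomerases. For the 14-3-3 genes the interval of replicate 1 (18.3 to 34.0) ended below those of replicates 3 (35.4 to 71.9) and 4 (39.9 to 77.8). Without Bc1-like sites the 14-3-3 shares were 37.2, 24.0, 51.8 and 56.9, and the interval of replicate 1 (27.3 to 50.6) then overlapped those of replicates 3 and 4. The chaperone shares were then 50.2, 37.7, 62.1 and 60.3, and the isomerase shares 9.30, 10.3, 10.4 and 13.4. The summed interneuron markers were also higher in replicates 3 and 4 on library totals (4.99, 3.03, 13.5 and 24.6 per 10000). The pyramidal neuron markers by name, with Camk2a at 0 (84.9, 72.6, 79.0 and 120), were highest in replicate 4. The sites named Mir6982, which lie in Camk2a, had 94.9, 36.3, 20.2 and 44.3, highest in replicate 1 and lowest in replicate 3. The blood and vessel markers (3.12, 56.0, 128 and 14.8) were highest in replicate 3. The summed astrocyte markers (31.8, 15.1, 11.8 and 9.84), the oligodendrocyte markers (28.1, 54.5, 18.5 and 13.1) and the Bc1-like tags were lower in replicates 3 and 4. The part of these cells and tags in the differences between replicates was not tested. In tissue, fewer cells of a type and less RNA per cell cannot be told apart.

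**Figure D1:**
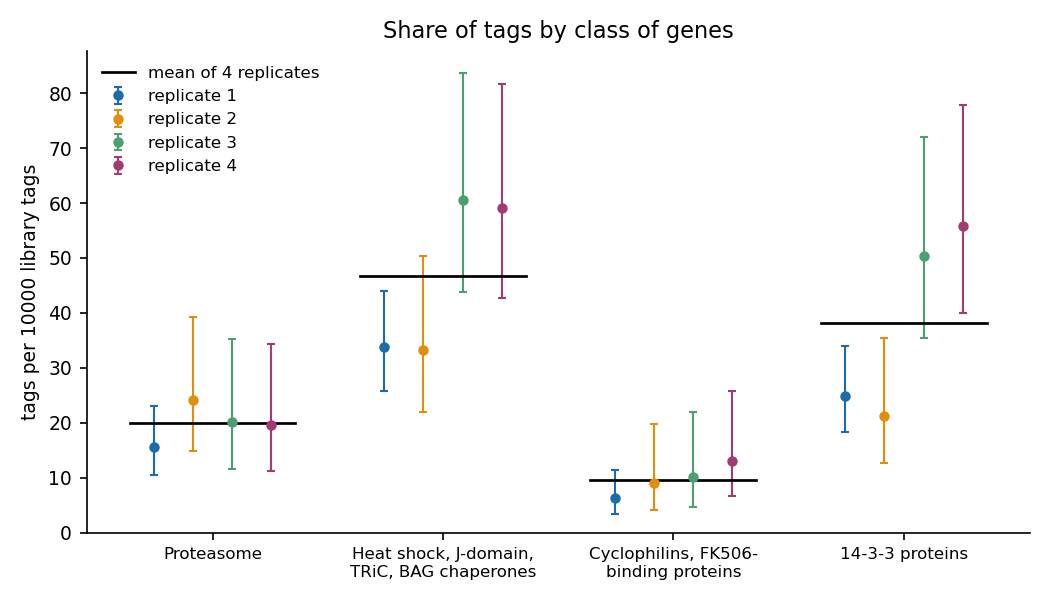
Tags per 10000 library tags (vertical axis) for the 4 classes of genes. Points are the 4 replicates with 95% Wilson intervals and black lines are their means. On these library totals chaperones and 14-3-3 proteins were higher in replicates 3 and 4 (59.0 to 60.5 and 50.4 to 55.7) than in replicates 1 and 2 (33.3 to 33.7 and 21.2 to 25.0), while the proteasome stayed between 15.6 and 24.2. With TMM totals, not drawn, the chaperone share was highest in replicate 1.

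The classes were compared within each replicate as a log2 ratio of tags, which does not depend on the library total, with an exact sign-flip permutation test over the 4 replicates (two-sided, 6 pairs, Benjamini-Hochberg adjustment). With 4 replicates this test cannot give a p below 0.13, so no pair could pass 0.05. Chaperones exceeded the proteasome in 4 of 4 replicates by a log2 ratio of 1.19 ± 0.53 (SD, n = 4, exact p = 0.13, adjusted p = 0.15). They exceeded the isomerases by 2.27 ± 0.31 and the proteasome exceeded the isomerases by 1.08 ± 0.38, each in 4 of 4 replicates with the same exact p values. The 14-3-3 genes were above the isomerases in 4 of 4 replicates (1.91 ± 0.48) and below the chaperones in 4 of 4 (-0.36 ± 0.24), again with adjusted p = 0.15 by the exact test. The ratio of 14-3-3 genes to proteasome was 0.68, -0.19, 1.32 and 1.50 in replicates 1 to 4 (0.83 ± 0.77, exact p = 0.25), so replicate 2 lay on the other side of 0. With only sites seen in more than 1 replicate, the 14-3-3 ratio to chaperones was -0.15 ± 0.27 (exact p = 0.50) and the proteasome ratio to isomerases was 0.83 ± 0.91 (exact p = 0.25). With only sites inside the gene of their name, the ratios to isomerases were 2.98 ± 1.55 for chaperones, 1.85 ± 1.16 for the proteasome and 2.67 ± 1.54 for 14-3-3 genes.

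The core of the proteasome was partly sampled. Of the 14 subunits of the constitutive 20S core 9 had a site, with 28 tags: the alpha subunits Psma1, Psma2, Psma3, Psma4 and Psma5 and the beta subunits Psmb1, Psmb2, Psmb3 and Psmb6. Psma6, Psma7, Psmb4, Psmb5 and Psmb7 had none, so of the 3 catalytic beta subunits only Psmb6, which cleaves after acidic residues, was listed. The highest counts in the core were 5 tags each for Psma1 (3, 1, 1 and 0 in replicates 1 to 4), Psmb1 (3, 2, 0 and 0) and Psmb2 (1, 3, 0 and 1). The immunoproteasome subunit Psmb9 had 1 tag, at a site 54.0 kb past its gene that vM21 places in the noncoding gene CR974462.4.

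In the 19S particle 5 of 6 ATPases had a site (12 tags, not Psmc4). Of the 11 non-ATPase subunits with a Psmd name, 6 had a site (16 tags, not Psmd1, Psmd11, Psmd12, Psmd13 and Psmd14). Psmd2, a scaffold of the 19S base that binds ubiquitin-like domains, had the most tags of any proteasome gene, with 2, 3, 2 and 1 in replicates 1 to 4 (2.70 ± 1.53 per 10000). It was the only proteasome gene with a site tagged in all 4 replicates. The ATPase Psmc5 had 2, 3, 2 and 0 tags (2.29 ± 2.04), where a count of 0 in replicate 4 allows up to 4.92 per 10000. Both genes were thus within a few tags of each other in every library. The other 4 ATPases had 1 or 2 tags each. The inhibitor Psmf1 had 2 tags, and the activator Psme4 and the assembly chaperones Psmg2 and Psmg4 had 1 each.

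**Figure D2:**
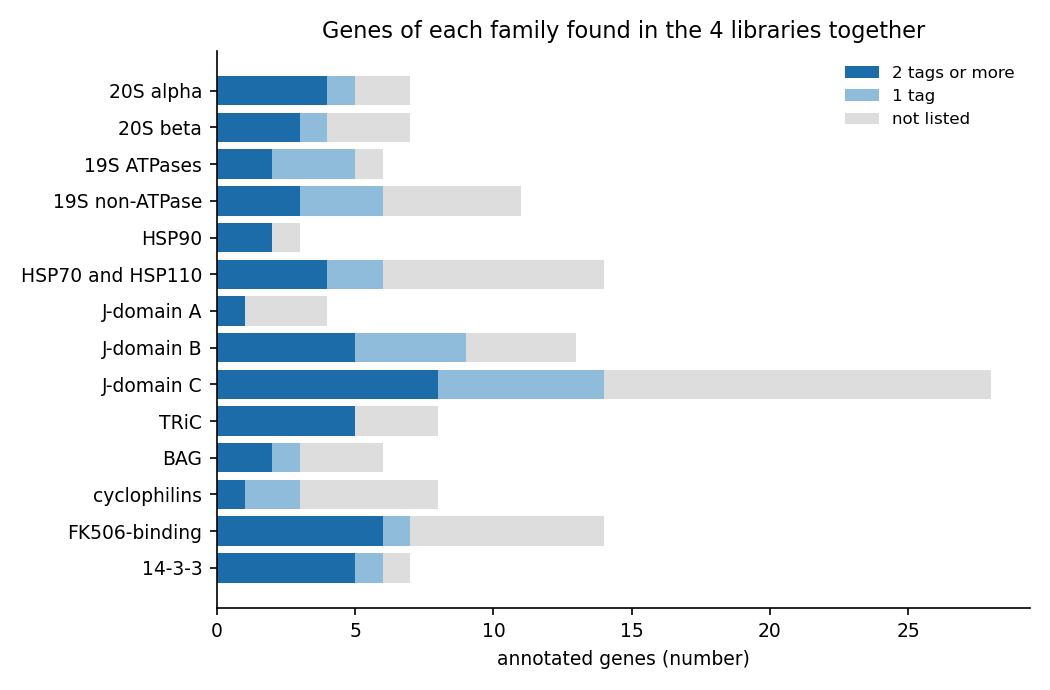
Number of annotated protein-coding genes (horizontal axis) in each family or complex, split by tags over the 4 libraries together. The 14-3-3 family had 6 of 7 isoforms, where Sfn is drawn as not listed but lies outside the name rule and was not looked for. The 19S ATPases had 5 of 6, while the HSP70 and HSP110 family had 6 of 14 and the J-domain A family 1 of 4.

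Proteasome mRNAs ended close to their stop codons. The sequences around 2 of their polyA sites are shown to make this concrete, each from 15 bases before to 14 bases after the listed position (GRCm38, 5′ to 3′), with the polyA signal in capitals. These are Psmc5 at chr11:106263087-106263116 (plus strand) and Psmd2 at chr16:20663373-20663402 (plus).
Psmc5: ccccccaaccAATAAAggtctgtgtgatga
Psmd2: ctgagtaagataactttgttgAATAAAgac
The listed site lay 40 bases past the stop codon in Psmc5 and 216 in Psmd2, which was 18 and 24 bases before an annotated transcript end. Over the 26 proteasome sites in the 3′UTR of the gene of their name, the median distance from stop codon to site was 189.5 bases, and 18 of them (69.2%) were under 300 bases. Among the 6409 comparable sites of all other genes the median was 1046 bases, and 17.3% were under 300. The other 8 proteasome sites ran from 353 bases in Psmc6 to 1261 in Psmb1, the only one above the median of the other genes.

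Chaperones covered a wider range. Their median was 575 bases over 45 sites, from 21 bases in the TRiC subunit Cct5 to 8071 in the J-domain gene Dnajb14. All 5 TRiC sites in a 3′UTR were under 300 bases (median 87), whereas 8 of 14 sites of the J-domain C family were over 1000 (median 1706). The 10 isomerase sites had a median of 636 bases. The 14-3-3 sites were the longest class, with a median of 1334 bases over 10 sites, from 756 in Ywhah to 2562 in Ywhag, and none was under 300.

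Weighted by tags, the geometric mean 3′UTR length of proteasome sites was 207, 191, 115 and 181 bases in replicates 1 to 4, against 895, 811, 866 and 991 bases for all other genes. The log2 ratio was -2.39 ± 0.39 (SD, n = 4) and was below 0 in 4 of 4 replicates (exact sign-flip permutation test, two-sided, p = 0.13, the smallest that 4 replicates allow, and adjusted p = 0.13 over the 4 classes). It was -0.75 ± 0.42 for chaperones and -0.56 ± 0.31 for isomerases, also below 0 in 4 of 4 replicates. For 14-3-3 genes it was 0.89 ± 0.14 and above 0 in 4 of 4. Each of these had the same exact p. The 14-3-3 value rested on 2 genes, since without Ywhaz and Ywhag it was 0.11 ± 0.18. Over all classes together the ratio was -0.49 ± 0.26, and -0.99 ± 0.30 without Ywhaz and Ywhag. The lengths are a property of which genes and which of their ends were tagged, and no cell body libraries were analysed here to set them against.

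**Figure D3:**
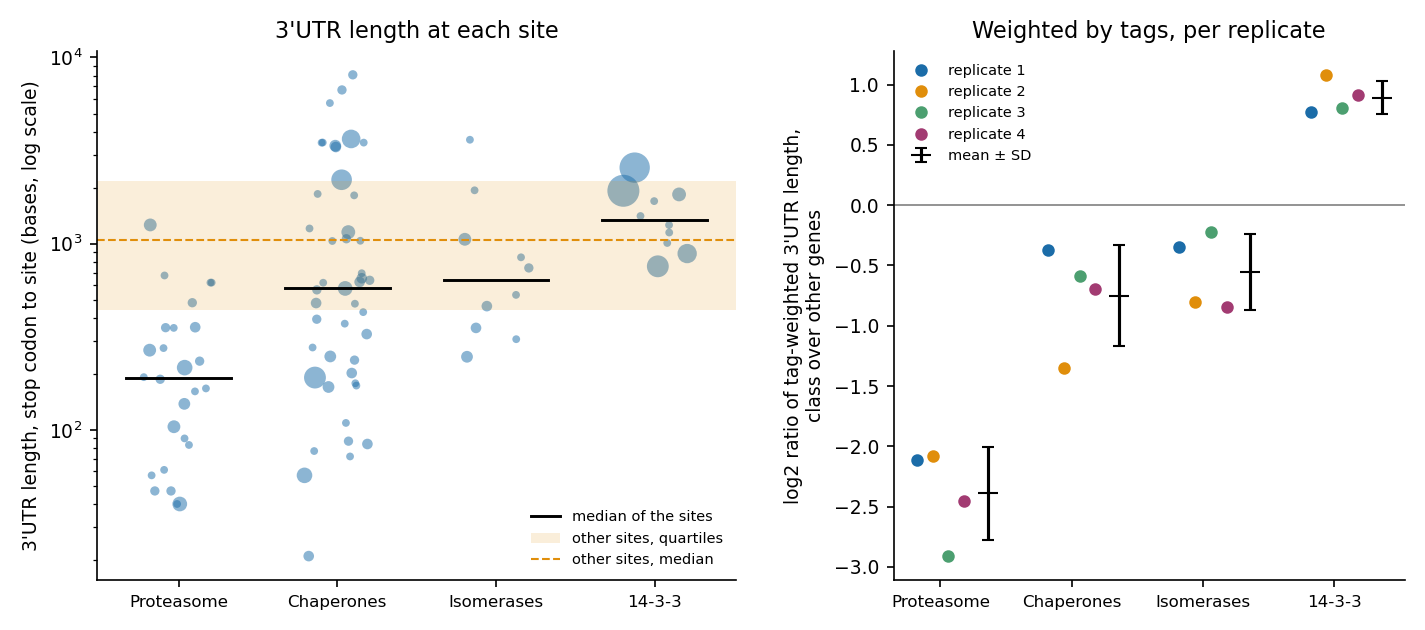
Left, 3′UTR length in bases (log scale) at each site inside the 3′UTR of the gene of its name, with point area growing with tags, black medians, and the quartiles and median of all other sites. Right, log2 ratio of the tag-weighted length of each class to other genes, per replicate, with mean ± SD. Proteasome sites had a median of 189.5 bases and a ratio of -2.39, and 14-3-3 sites had a median of 1334 bases and a ratio of 0.89.

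Ywhaz, the zeta 14-3-3 isoform, had the highest share of all 85 genes and ranked 48 among the 7202 gene names by mean share. It had 10, 6, 11 and 17 tags in replicates 1 to 4, or 6.24, 9.08, 18.5 and 27.9 per 10000 (15.4 ± 9.81). The value in replicate 4 was the highest and its interval (17.4 to 44.6) lay above that of replicate 1 (3.39 to 11.5). Ywhaz was the only member called among the 2 with at least 20 tags, against 61.6% of all 211 genes with at least 20 tags whose intervals did not overlap between replicates. At a minimum of 10 tags it was the only one of 7, against 35.8% of 533 genes. Without replicate 1 or without replicate 4 no member was called.

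Ywhag, the gamma isoform, followed with 12, 4, 6 and 12 tags at a single site (10.8 ± 6.13 per 10000). Its 4 intervals overlapped, and its mean lay within the spread of Ywhaz. The sites of both genes are shown because they carried the most tags, Ywhaz at chr15:36770780-36770809 (minus strand) and Ywhag at chr5:135908419-135908448 (minus), with the signal in capitals.
Ywhaz: ctagtacactgtaaatgctcAATAAAtatt
Ywhag: tagccgtcgtacattgagcaaAATAAActt
The signal began 5 bases after the listed position in Ywhaz and 6 bases after it in Ywhag. Both listed positions lay 24 bases before an annotated transcript end, 1924 and 2562 bases past the stop codon.

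Among the other isoforms, Ywhah (eta) had 10, 0, 3 and 4 tags (4.46 ± 3.05 per 10000), Ywhae (epsilon) had 4, 3, 7 and 0 (4.70 ± 5.06) and Ywhab (beta) had 4, 0, 3 and 1 (2.30 ± 2.11). Without replicate 3 the mean was 2.35 for Ywhae and 1.38 for Ywhab. Each of the 3 was absent from 1 library, Ywhah and Ywhab from replicate 2 and Ywhae from replicate 4. A count of 0 allows up to 4.54 per 10000 in replicate 2. Ywhaq (theta) had 1 tag, in replicate 2. The seventh mammalian isoform, Sfn (sigma), which is known mainly from epithelia, does not meet the name rule and was not looked for. In order of mean share the isoforms ran Ywhaz, Ywhag, Ywhae, Ywhah, Ywhab and Ywhaq, and no neighbouring pair differed by more than the larger of its SDs.

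**Figure D4:**
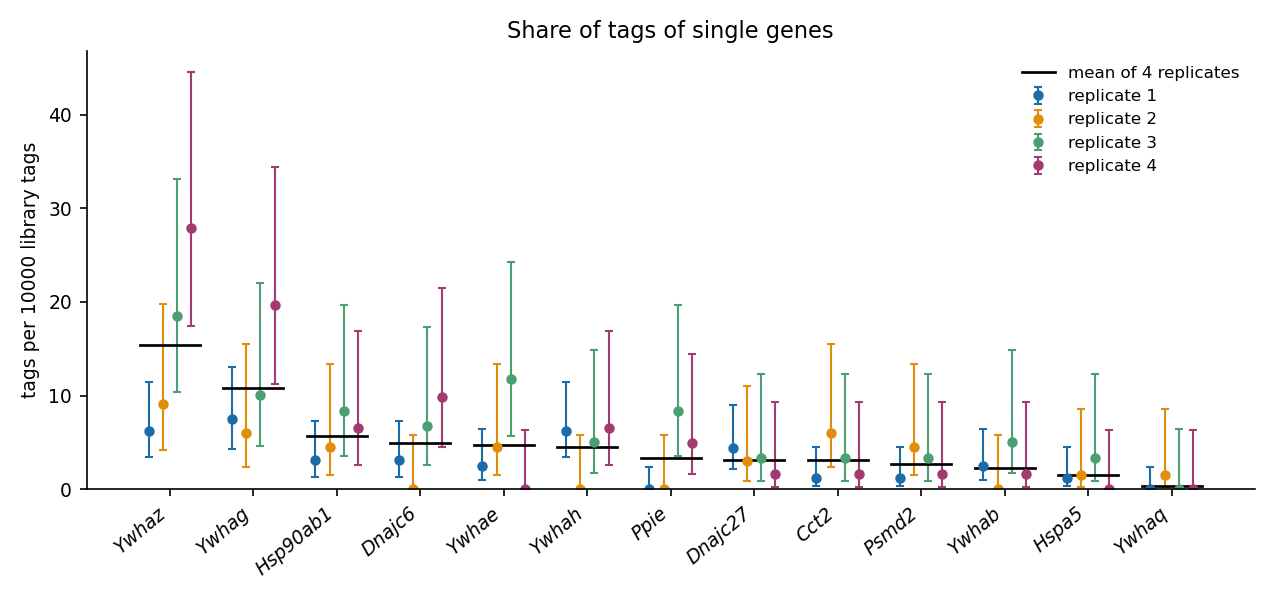
Tags per 10000 library tags (vertical axis) of the 10 genes with the highest mean share, the other 14-3-3 genes and Hspa5. Points are the 4 replicates with 95% Wilson intervals and black lines are means. Ywhaz ran from 6.24 to 27.9 and Ywhag from 6.05 to 19.7, and of the other genes only Ywhae (11.8 in replicate 3) passed 10 in any replicate.

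Several 14-3-3 genes had more than 1 listed site. Ywhae had 13 of its 14 tags (4, 3, 6 and 0) at a site 885 bases past the stop codon and 1 tag at a site 263 bases further on, near the annotated end. Ywhab had 6 of 8 tags at the most distal of 3 sites, 1839 bases past the stop codon, and the remaining sites, 1693 and 1408 bases past it, had 1 tag each. Ywhaz had 38 of 44 tags at the site shown above and 1 tag each at a nearer site and at a site 484 bases past the annotated gene. The remaining Ywhaz site, with 0, 0, 2 and 2 tags, lay 154 kb past the gene.

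Hsp90ab1, the constitutive cytosolic HSP90, was the best sampled chaperone, with 5, 3, 5 and 4 tags in replicates 1 to 4 (5.66 ± 2.31 per 10000) at 1 site 191 bases past the stop codon. It was found in every library. The inducible form Hsp90aa1 had no site, and the endoplasmic reticulum form Hsp90b1 had 3 tags at 2 sites 108 bases apart. The 60 bases before the Hsp90ab1 site had 5 near-identical copies elsewhere in the genome, so tags of this site could have been placed among several loci.

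The HSP70 and HSP110 family had 15 tags in 6 of 14 genes, the most being 5 for Hspa5 (BiP, the endoplasmic reticulum HSP70), at 1.53 per 10000 on average and 0.921 without replicate 3. The constitutive cytosolic Hspa8 and the stress-induced Hspa1a and Hspa1b had no site of their name. Hspa9, the mitochondrial HSP70, and Hsph1, an HSP110 nucleotide exchange factor, had 3 tags each. Hspd1 and Hspe1, which form the mitochondrial chaperonin, had no site, nor had any gene with an Hspb name other than Hspb11, with 1 tag.

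The J-domain C family held 54 of the 148 chaperone tags (16.2 ± 4.70 per 10000). Dnajc6 (auxilin, which uncoats clathrin-coated vesicles with HSP70) had 5, 0, 4 and 6 tags (4.92 ± 4.28), and Dnajc27, a Rab-like GTPase with a J domain, had 7, 2, 2 and 1 (3.10 ± 1.13). Dnajc6 was absent from replicate 2, where up to 4.54 per 10000 is allowed, and Dnajc27 was found in all 4 libraries. Dnajc8 had 4, 0, 2 and 1 tags, and Dnajc5, the cysteine string protein of synaptic vesicles, had 1. In the J-domain B family 9 of 13 genes had 20 tags, led by Dnajb5 with 1, 0, 3 and 2.

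In the TRiC ring 5 of 8 subunits had a site of their name (21 tags), and Tcp1, Cct3 and Cct6a had none. By name Cct2 had 2, 4, 2 and 1 tags in replicates 1 to 4 (3.08 ± 2.19 per 10000), but 6 of these 9 tags lay at a site 78.3 kb past the gene, described below. Inside the gene Cct2 had 0, 0, 2 and 1 tags, and Cct4 had 1, 1, 2 and 0. Among BAG genes Bag6, which handles membrane and mislocalised proteins, had 4, 2, 1 and 1 tags at a site 57 bases past the stop codon and was found in all 4 libraries. The HSP70 and HSP90 organiser Stip1 had 1 tag, in replicate 4.

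The isomerases had the fewest tags of the 4 classes. Per gene they were not the sparsest, with a median of 2.5 tags against 2 for the proteasome. Ppie, a nuclear cyclophilin of the spliceosome, had 0, 0, 5 and 3 tags (3.33 ± 4.10 per 10000), or 1.64 per 10000 without replicate 3, all at 1 site 99.6 kb past its gene, so 8 of the 10 cyclophilin tags came from outside an annotated cyclophilin gene. With sites outside the gene of their name left out, the isomerase share fell from 9.63 ± 2.84 to 6.30 ± 3.30 per 10000. Among FK506-binding proteins (20 tags in 7 of 14 genes) Fkbp1a, the binding protein of FK506 and rapamycin, had 3, 0, 0 and 2 tags and Fkbp3 had 2, 1, 0 and 1. Fkbp5, the glucocorticoid-induced regulator of steroid receptors, had 1 tag.

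Some sites of these families carry another name in the table and were not counted above. At 8 sites with 24 tags the vM21 gene was a member of the rule while the name was that of a small RNA or other locus inside or beside it. Dnaja1, an HSP40, had 7 tags at 3 sites named Mir207. Ppia (cyclophilin A) had 3, 0, 0 and 3 tags at a site named Mir7651, Cct6a had 2, 0, 1 and 1 at a site named Snora15, and Fkbp2 had 1, 2, 0 and 0 at a site named LOC114841036. Dnaja4 (named Mir5710) and Hspa12a (named Mir3086) had 2 tags each. The absence of Cct6a and Ppia by name is therefore not absence from the libraries.

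Of the 103 sites 49 (47.6%) had tags in more than 1 replicate, against 34.2% of all sites, and 6 (5.83%, against 4.90%) had tags in all 4 (Ywhaz, Ywhag, Hsp90ab1, Dnajc27, Psmd2 and Bag6). At matched tag numbers, of 15 sites with 2 tags 13 had them in 2 replicates (86.7%), against 61.4% of the 1555 such sites in the table, and all 17 sites with 3 to 4 tags were found in more than 1 replicate, against 87.1%. The share found in at least 3 replicates was 29.4% against 34.2% for sites with 3 to 4 tags and 66.7% against 68.9% for those with 5 to 9. For sites with 10 or more tags it was 100% against 85.9%, and the share found in all 4 was 57.1% against 59.0%. These are descriptions without a test.

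The polyA signals AATAAA and ATTAAA, which the cleavage machinery binds, were looked for at every site. One of them began within 50 bases of the listed position, on the strand of the site, at 89 of 103 sites (86.4%, 95% Wilson interval 78.5 to 91.7), against 78.1% of all sites. Searching the 50 bases upstream alone gave 32.0% against 30.3%. The canonical AATAAA was present at 74 sites (71.8%, against 64.4%). Where a signal was present, it began at a median of 1 base before the listed position (2 bases before it over all sites). By class the share was 93.1% for proteasome sites, 90.9% for isomerases, 83.3% for 14-3-3 and 82.4% for chaperones, with intervals that overlapped. The highest site without either signal was Dnajc27, with 12 tags in 4 of 4 replicates, shown here with its position chr12:4110571-4110600 (plus strand), followed by Ppie at chr4:123027506-123027535 (minus).
Dnajc27: gttgtgtatttttatagagtaaagtcaaat
Ppie: atcctgggtgacagagttagactctatctt
The Dnajc27 site had the variant AGTAAA beginning 2 bases after the listed position and lay 20 bases before an annotated transcript end. The Ppie site had none of the 11 variants searched on its strand (TTTAAA and 10 that differ from AATAAA at a single base), and over all sites 1464 of the 2036 without a main signal had one of them.

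In all, 8 of the 103 sites (23 tags) lay outside the vM21 gene of their name, or 7.77% against 23.5% of all sites. The 3 with the most tags were those of Ppie, Cct2 and Ywhaz, and each was found in a pair of libraries only. The Ppie site (5 and 3 tags) and the Ywhaz site (2 and 2 tags) were seen in replicates 3 and 4, and the Cct2 site (2 and 4 tags) in replicates 1 and 2. The distant Cct2 and Ywhaz sites are shown with the Cct2 site inside the gene, at chr10:116972728-116972757, chr15:36616841-36616870 and chr10:117051013-117051042 (all minus strand), with signals inside the 30 bases in capitals. The distant sites also had an AATAAA that was not wholly inside these bases. It began 17 bases before the listed position for Cct2, so that the sequence shown opens with its end, and 18 bases after it for Ywhaz.
Cct2, distant: taaagactggttttggtccctggagaaaaa
Ywhaz, distant: cagcctgggctacagagtaagaccttgtct
Cct2, in gene: tctcatactgtgtATTAAAATAAAaatcca
The distant Ywhaz and Ppie sequences shared 22 of 29 bases without gaps. The letters they have in common, ANCCTGGGNNACAGAGTNAGACNNTNTCT (N is any base), taken after both were seen, occurred in the 30-base window on the site's strand at 4 of 9294 sites (0.0430%) and on the other strand at none, and these 2 were the only members among the 4. The distant Cct2 site had 6 near-identical copies in the genome and a run of 20 A bases within 100 bases downstream. The nearest annotated gene upstream on its strand was Cct2 itself, 78.3 kb away, whereas for the Ywhaz site it was the long noncoding gene Gm46515, 15.9 kb away, and for the Ppie site Gm12923, 65.2 kb away. Which transcripts these tags came from was not tested.

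The choice between proximal and distal ends could be examined in few genes. Only Ywhaz, Cct2 and Hspa5 had at least 2 sites that were each found in more than 1 replicate. Cct2 had 2, 4, 0 and 0 tags at the distant site and 0, 0, 2 and 1 at the site inside the gene, so no library held both. Hspa5 had 2, 0, 1 and 0 tags at the proximal site, which has AATAAA, and 0, 1, 1 and 0 at a site 66 bases further on, which has neither signal. Over the 3 genes the log2 ratio of distal to proximal tags, with a pseudocount of 0.5 tags, was -2.32, -0.24, -1.84 and -2.54 in replicates 1 to 4 (-1.73 ± 1.04, below 0 in 4 of 4, exact sign-flip permutation p = 0.13, two-sided). Without replicate 1, 2 or 4 a single gene still had such sites, and the ratio was -2.69, -2.92 and -0.25. Without replicate 3 no gene had them. This ratio was made up mainly of Ywhaz and of sites far outside genes. Where a site needed 5% or more of its gene's tags (15 genes) it was -1.11 ± 0.40. Over all 15 genes with more than 1 listed site it was 0.0023 ± 0.92, and over the 12 genes with more than 1 site inside the gene of their name it was 1.05 ± 1.05 and above 0 in 4 of 4, so the direction depended on the sites counted.

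Ywhaz was the only member among 101 genes with at least 20 tags and more than 1 site, of which 12.9% were called by Fisher's exact test at an adjusted p under 0.05. Its most distal site had 0, 0, 2 and 2 tags against 10, 6, 9 and 15 at nearer sites (Fisher's exact test, p = 0.550, adjusted p = 0.868). With so few distal tags, only a large difference would have been detectable at this depth. The other genes with more than 1 site, Cct2 among them, had under 20 tags and were not tested at this minimum.

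Near-identical copies of the 60 bases before the site (at least 90% identity over at least 90% of them) were found elsewhere in the genome for 23 of 103 sites (22.3%), against 19.3% of all sites. These 23 sites held 101 of the 361 tags (28.0%), against 30.9% of all tags. Beside Hsp90ab1 they were led by Ywhah (17 tags, 3 copies), Psmd2 (8 tags, 2 copies) and Dnajc8 (7 tags, 1 copy). The main sites of Ywhaz and Ywhag had no such copy. How tags that match several places were treated is not given in the sources used here, so the counts of these 23 sites are uncertain.

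Genes that work with these families were listed too. Of 27 ubiquitin and proteasome partners, 19 had a site, with 124 tags (37.7 ± 12.2 per 10000), and of 32 chaperone partners 21 had a site, with 76 tags (23.1 ± 6.58). Uchl1, a neuronal deubiquitinase, had the most, with 13, 5, 11 and 7 tags (11.4 ± 5.03), a share within the spread of Ywhag. The extracellular chaperone Clu had 10, 6, 0 and 1 (4.24 ± 4.17). The ubiquitin-activating enzyme Uba1 had 7, 1, 0 and 5 tags and the polyubiquitin gene Ubb had 7, 2, 4 and 0. Clu, which astrocytes express strongly, had 16 of its 17 tags in replicates 1 and 2, the libraries with the higher astrocyte and oligodendrocyte marker shares, and the part of glial RNA in its count was not tested.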

How the data were processed

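cTag-PAPERCLIP tags of 4 CA1 neuropil libraries were analysed as 1 group, as the labels give it. The authors deposited raw tag counts for each stranded 1-base polyA site and its gene name. In the study's methods, tags were mapped to the genome and clustered with CTK. The submitters' processing notes name cutadapt, Novoalign and mm10, without versions. By its name the table holds tags that overlap sites found before in Camk2a-expressing cells. Duplicate collapse and multiple matches are not given in the sources used here, so amplified or repeated sequence can raise a count.

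Sites were placed in GRCm38 with GENCODE vM21 (none of 9294 lay past a chromosome end). Counts were summed by class and gene and divided by library totals (5947 to 16017 tags), and a count of 0 allows 3 tags. Distance to the stop codon followed the transcript, excluding the stop codon. Signals were sought within 50 bases on either side, and genome copies with blastn 2.17.0. Wilson intervals (95%), exact sign-flip permutation tests over replicates and Fisher's exact test with Benjamini-Hochberg adjustment over the whole table were used (Python 3.11.15, scipy 1.17.1, statsmodels 0.14.6, R 4.3.3). Totals from TMM (edgeR 4.0.16) and DESeq2 1.42.0 size factors were alternatives. Scripts were tested on simulated data.

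The members and lists were chosen with earlier results of these data known. Named genes were the 10 with the highest mean share, all 14-3-3 genes, genes with at least 20 tags, genes with more than 1 site in more than 1 replicate, the leading and missing subunits of complexes, members under another name and the 5 partners with the most tags, of which 1 is not reported here. Others were chosen after their values were seen. The sign-flip p-values take these 4 libraries as replicates, and Fisher's exact test sets the libraries against counting error. Neither compares conditions.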

Additional observations from a re-analysis of the deposited data

Results flagged for a closer look

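Of 29 results with a value in each replicate, 1 had a replicate far from the others. About 1.45 would be flagged by chance, a figure that does not apply to genes with so few tags. The gene was Ywhaq, with 1 tag in replicate 2 and none in the other libraries, so the gap to the nearest value took up the whole range (a ratio of 1). Any gene with a single tag gives this ratio, so the flag followed from its count.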

How the results depend on the processing

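Of the values recomputed for class shares, class ratios, counts of sites and 3′UTR lengths, 150 stayed within 1 SD (shares), within 1.5 times (counts) or on the same side of 0 (log2 ratios, whatever their size), 8 moved further and 2 reversed, and all 104 for single genes stayed within 1 SD, although without replicate 3 the shares of Ywhae, Ppie, Ywhab and Hspa5 fell by over 1.5 times (to 2.35, 1.64, 1.38 and 0.921 per 10000), and the only tag of Ywhaq was in replicate 2. The isomerase share was 6.30 per 10000 with only sites inside the gene of their name, an alternative added after seeing the data. Sites seen in more than 1 replicate numbered 18 with at least 2 tags in each of them (17.5%, against 10.9% of all sites), 20 with tags in at least 3 replicates (19.4% against 14.3%) and 6 with tags in all 4 (5.83% against 4.90%), and 31 to 38 when a replicate was left out. The distal to proximal log2 ratio was 0.0023 with all listed sites and 1.05 with those inside the gene of their name (also added later), and -2.92 to -0.25 without replicate 1, 2 or 4 (without replicate 3 no gene was left). The 14-3-3 3′UTR length ratio kept its sign but fell from 0.89 to 0.11 without Ywhaz and Ywhag (added later). The number of members whose intervals did not overlap ran from 0 to 1 without a replicate. Searching 50 bases upstream only found a signal at 33 sites (32.0%, against 30.3% of all sites). DESeq2 gave every library the same size factor, so this alternative made no correction for depth, and its values are among those counted as staying. With at least 50 tags no member gene could be tested. No paired analysis was possible because all libraries form 1 group.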
